A study of Mus musculus with 18 samples.

Results

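The 8 genes described here are the components and stromal targets of Hedgehog signalling that were picked by name: Smo, Ptch1, Hhip, Gli1, Gli2, Gli3, Foxl1 and Foxf2. They were found by their symbols among the 23238 gene symbols of the count tables, and all 8 were present. Their levels were followed in 18 libraries of sorted cells from mouse intestine.

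Hedgehog ligands made by the gut epithelium act on the stroma that lies beneath it. The ligand binds Patched receptors, which otherwise hold the membrane protein Smoothened (Smo) in check, and released Smo changes the GLI transcription factors at the primary cilium so that target genes are switched on. Ptch1, Hhip and Gli1 are themselves induced by the signal, so that their levels are used as readouts of it, and the forkhead genes Foxf1, Foxf2 and Foxl1 are known Hedgehog-responsive genes of the gut mesenchyme. In adult intestine Gli1 and Foxl1 also mark subsets of stromal cells that supply niche signals to the crypts.

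The cells were FACS sorted from adult C57BL/6J mice. Intestinal stromal cells (IntSCs) were sorted by tdTomato after removal of CD45, CD326 and CD31 positive cells, whereas lacteal endothelium, which lines the lymphatics that drain a villus (lymphatic endothelial cells, LECs), was sorted by CD31 and podoplanin. Both genotypes carried, per the labels, the PDGFRb+-CreERT2-Tomato+ alleles, a tamoxifen-inducible Cre recombinase driven by Pdgfrb with a red reporter, and the LATS1/2 KO mice carried floxed Lats1 and Lats2 in addition (Lats1f/f Lats2 f/f). LATS1 and LATS2 are the kinases of the Hippo pathway that restrain YAP and TAZ, and the series compared stroma and lacteals with and without them. There were 6 WT and 5 KO libraries of IntSCs, and 4 WT and 3 KO libraries of LECs. The Cre acts in Pdgfrb-expressing cells, so LECs of the KO mice are not the targeted cells. The replicate numbers of the titles were the basis for n. The paper's supplement describes the RNA sequencing groups of both cell types as mice, pooled over independent experiments. The titles name neither the mouse nor the experiment of a library, so no fit had a term for experiment. The p-values therefore measure the spread between these libraries, in which differences between experiments cannot be told apart.

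Library totals ranged from 5361250 to 10549233 reads, and 3 reads corresponded to 0.284 to 0.560 CPM (reads relative to the library total) before scaling. Lats1 ranged from 0 to 30.1 CPM in WT IntSCs and from 12.9 to 21.2 CPM in KO IntSCs, and Lats2 from 41.6 to 113 CPM and from 80.1 to 130 CPM, so the ranges overlapped. Whether the reads fall in the floxed exons, or only at the 3′ ends of transcripts, was not settled, so these values do not check the deletion. A list of 5 Paneth cell markers summed to between 0.271 and 6.33 CPM in WT IntSCs and between 38.1 and 113 CPM in KO IntSCs. It summed to at most 0.741 CPM in WT LECs and to between 11.8 and 87.7 CPM in KO LECs. A list of 7 fibroblast markers summed to between 9816 and 15112 CPM in WT IntSCs, between 6855 and 11552 CPM in KO IntSCs, between 558 and 1934 CPM in WT LECs and between 275 and 518 CPM in KO LECs. The 7 LEC markers summed to at least 8210 CPM in every LEC library and to at most 417 CPM in every IntSC library.

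The members are protein-coding genes on 5 chromosomes of the mouse genome (GRCm38, GENCODE vM21). Smo lies at chr6:29735503-29761365, Ptch1 at chr13:63508328-63573598, Hhip at chr8:79965851-80058006, Gli1 at chr10:127329882-127341974, Gli2 at chr1:118834132-119053619, Gli3 at chr13:15463235-15730026, Foxl1 at chr8:121127940-121130644 and Foxf2 at chr13:31625816-31631403. RefSeq promoter windows of GRCm38.p6, which run from 250 bases before to 50 bases after a start, were at hand for 6 of the 8. They were searched on both strands for ACCACCC, the core of the motif that GLI proteins bind, and for GGAATG, which TEAD proteins bind, the DNA-binding partners of YAP and TAZ. The first was found in the Gli2 window, with its first base at -205 from the start, and the second in the Smo window at -17. No match was found in the windows of Gli3, Ptch1, Hhip and Foxf2. Of 32851 promoter windows in the table, 4.61% held the GLI core and 14.7% the TEAD motif. For 3 promoters the 250 bases before the start are given here, because Hhip was the member that differed between genotypes in IntSCs and the Gli2 and Smo windows held a match, which is in capitals and lies on the opposite strand.
Hhip, chr8:80058009-80058258, minus strand: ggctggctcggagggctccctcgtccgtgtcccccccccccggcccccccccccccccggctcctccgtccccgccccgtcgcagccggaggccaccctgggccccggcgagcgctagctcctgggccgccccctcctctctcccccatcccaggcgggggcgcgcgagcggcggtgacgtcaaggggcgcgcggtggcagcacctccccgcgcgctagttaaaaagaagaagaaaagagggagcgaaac
Gli2, chr1:119053620-119053869, minus strand: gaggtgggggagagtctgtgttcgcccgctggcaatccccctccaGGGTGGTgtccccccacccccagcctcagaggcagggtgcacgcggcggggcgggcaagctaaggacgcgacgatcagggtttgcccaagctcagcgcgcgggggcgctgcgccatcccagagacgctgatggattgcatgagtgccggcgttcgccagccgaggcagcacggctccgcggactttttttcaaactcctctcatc
Smo, chr6:29735247-29735496, plus strand: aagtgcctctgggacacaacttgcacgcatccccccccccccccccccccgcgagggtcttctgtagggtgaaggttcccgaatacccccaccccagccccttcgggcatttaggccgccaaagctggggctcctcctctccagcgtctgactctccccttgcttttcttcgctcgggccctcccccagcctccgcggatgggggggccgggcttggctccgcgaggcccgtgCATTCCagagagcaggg

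The count of 1 member could not be assigned to its gene. The 3′ ends of Gli1 (minus strand) and of Arhgap9 (plus strand, chr10:127321964-127329943) overlap by 62 bases of exon at chr10:127329882-127329943, and the counts of both followed each other from library to library. WT IntSC libraries 1 to 6 held 2078, 1044, 3447, 1635, 2173 and 2033 reads for Gli1 and 1861, 896, 3217, 1474, 1886 and 1965 reads for Arhgap9. In every IntSC library Arhgap9 stood at 85.5% to 96.7% of the Gli1 count, and WT LECs held 154, 2, 110 and 327 reads of Gli1 beside 117, 2, 110 and 324 of Arhgap9. Whether strand was used in counting is not given in the sources used here, so reads from the 2 genes cannot be told apart, and each Gli1 value given here is the count filed under that symbol. No other member had an overlapping gene in the count tables.

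**Figure D1:**
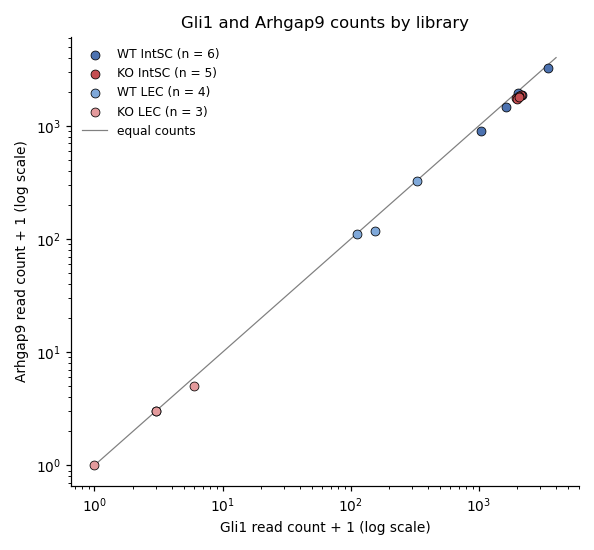
Read counts of Gli1 (x axis) and Arhgap9 (y axis), each plus 1 and on a log scale, with 1 point per library coloured by group and a line at equal counts. The points of all 4 groups lie close to the line, from 0 reads of either gene in KO LEC 3 to 3447 and 3217 reads in WT IntSC 3.

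The first comparison asked whether the Hedgehog genes of the stroma differed after deletion of LATS1/2. In sorted IntSCs all 8 genes passed the filter on low counts, and 1 of them, Hhip, passed the test. Hhip, the secreted and membrane-bound protein that binds and sequesters Hedgehog ligands, was higher in KO IntSCs by 1.13 ± 0.27 on the log2 scale (estimate ± SE), a 2.19-fold difference. For Ptch1, another readout of the signal, the difference was -0.62, and for Gli1, whose count could not be assigned, it was -0.25; neither passed the test. Over all 12421 genes tested 1.47% passed the threshold of 0.05 on the edgeR adjusted p, 0.853% with a higher level in KO.

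Hhip was at 32.5, 57.8 and 124 CPM (lowest, median, highest) in WT IntSCs and at 168.5, 137, 106, 125.5 and 152.5 CPM in KO IntSCs 1 to 5. Of the 5 KO libraries 4 lay above every WT library, and KO IntSC 3 lay below WT IntSC 2, the single WT library at 124 CPM, while the other WT libraries reached at most 62.5 CPM. The edgeR adjusted p was 0.0390, and the 95% interval of the log2 difference ran from 0.56 to 1.70. Without WT IntSC 2 the difference was 1.44 with an adjusted p of 0.00211, and in each of the 10 fits that left out another library the adjusted p lay between 0.0538 and 0.125, with differences of 1.0 to 1.2. The call was lost in each of these 10 fits and when LECs and IntSCs were fitted together, while the difference stayed between 1.0 and 1.4 in every alternative run. It held by DESeq2 and limma-voom (adjusted p = 0.00932 and 0.0147).

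**Figure D2:**
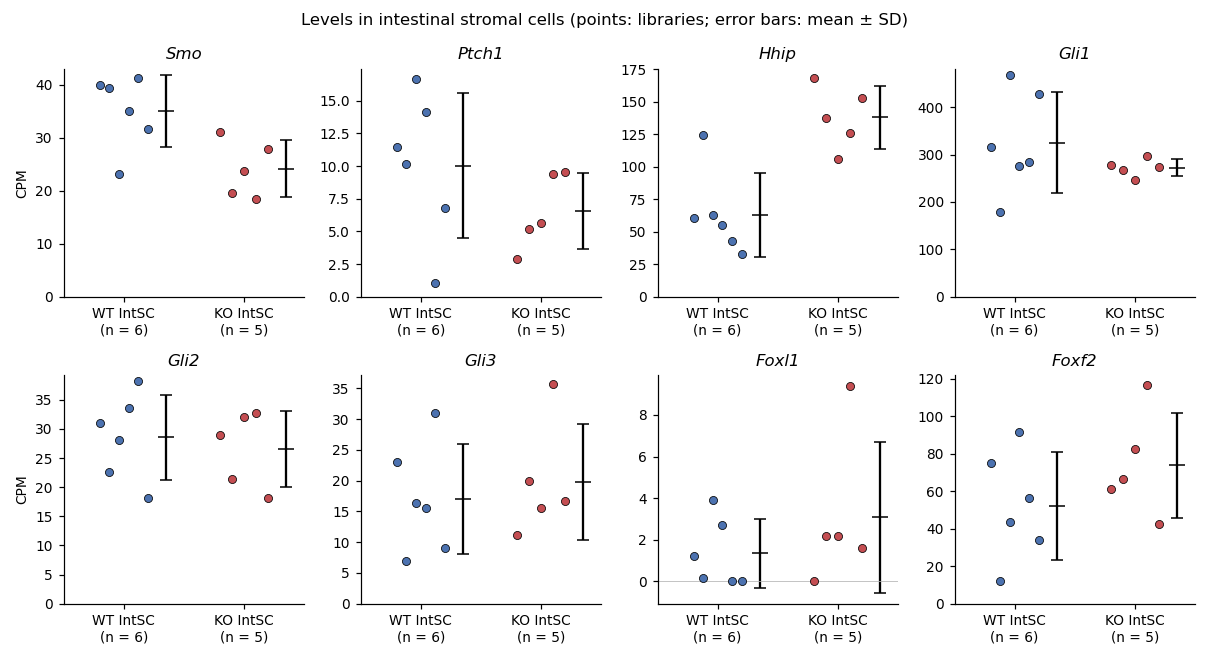
CPM (y axis, linear) of each member in the 6 WT and 5 KO IntSC libraries, with points for libraries and bars for mean ± SD. In the Hhip panel 4 of 5 KO points lie above every WT point, and the groups overlap in every panel, that of Hhip included.

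Smo, which passes the signal on from the receptor, was at 23.2, 37.2 and 41.2 CPM (lowest, median, highest) in WT IntSCs and at 31.0, 19.6, 23.7, 18.4 and 27.9 CPM in the KO libraries. The KO minus WT difference was -0.54 ± 0.30 on the log2 scale (adjusted p = 0.610, interval -1.16 to 0.08). Of the KO libraries 3 lay inside the range of WT and 2 lay below it.

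Ptch1, the receptor, was at 1.05, 10.8 and 16.7 CPM (lowest, median, highest) in WT IntSCs and at 2.88, 5.21, 5.65, 9.40 and 9.57 CPM in the KO libraries. The log2 difference was -0.62 ± 0.72 (adjusted p = 0.906, interval -2.12 to 0.88). All KO values fell within the WT range, and the interval leaves room for a change of more than 2 on the log2 scale.

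Gli1, the GLI factor that is itself a target of the pathway, was at 180, 300.2 and 467 CPM (lowest, median, highest) in WT IntSCs and at 278, 268, 246, 298 and 274 CPM in the KO libraries. The log2 difference was -0.25 ± 0.21 (adjusted p = 0.818, interval -0.69 to 0.18). The KO libraries lay close together, with a coefficient of variation of 6.88% against 32.6% among WT libraries, and inside the WT range.

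Gli2, the main activator among the GLI factors, was at 18.1, 29.6 and 38.2 CPM (lowest, median, highest) in WT IntSCs and at 28.9, 21.4, 32.0, 32.7 and 18.1 CPM in KO, a log2 difference of -0.10 ± 0.32 (adjusted p = 0.980). Gli3, which is processed mainly to a repressor when the signal is absent, was at 6.88, 16.0 and 31.0 CPM in WT and at 11.1, 19.9, 15.6, 35.7 and 16.8 CPM in KO, a difference of 0.23 ± 0.46 (adjusted p = 0.955). For both genes the groups overlapped almost completely, and the intervals ran from -0.77 to 0.57 for Gli2 and from -0.73 to 1.19 for Gli3.

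Foxf2, a forkhead factor of the gut mesenchyme, was at 12.0, 49.999 and 91.5 CPM (lowest, median, highest) in WT IntSCs and at 61.1, 66.5, 82.4, 116 and 42.3 CPM in KO. The log2 difference of 0.51 ± 0.37 did not pass the test (adjusted p = 0.781, interval -0.28 to 1.29), and KO IntSC 4 was the single KO library above the WT range. Foxl1, the marker of subepithelial telocytes, was close to the detection limit, with 0 to 29 reads per WT library and 0, 16, 18, 63 and 12 reads in the KO libraries. Its levels were 0, 0.695 and 3.93 CPM (lowest, median, highest) in WT and 0, 2.19, 2.16, 9.40 and 1.60 CPM in KO, and the difference of 1.19 ± 1.45 (adjusted p = 0.913, interval -1.82 to 4.21) spans 0 widely, so that a difference was not detectable at this depth. KO IntSC 4 held 63 of the 109 KO reads, and without it the difference was 0.13.

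No member had KO and WT IntSC groups that did not overlap, against 2.83% of all genes tested. Beside these values, the Paneth marker list was higher in every KO IntSC library than in any WT one, the summed telocyte list (7 genes) was at 372 to 764 CPM in WT and 405 to 574 CPM in KO, and the smooth muscle list (6 genes) at 1038 to 1804 and 1253 to 2338 CPM. Their part in the levels of the members was not tested. In bulk samples fewer cells of a type and less RNA per cell cannot be told apart.

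The second question was where in the sorted cells these genes were expressed. In WT mice 5 members were higher in IntSCs than in LECs: Gli1, Gli2, Gli3, Hhip and Smo. Gli2 and Gli3 were nearly absent from LECs, Gli1 and Hhip were lower there by 4.48 and 3.71 on the log2 scale, and Smo by 1.73. In KO mice the same 5 and Foxf2 were higher in IntSCs, Hhip by 7.18 and Gli1 by 9.82. Of all genes tested 22.6% passed the threshold in WT (12.3% higher in IntSCs) and 25.9% in KO (16.8% higher in IntSCs), with 7 members tested in WT and 8 in KO. A gene that is high in one cell type and near 0 in the other passes a filter on low counts through the high group alone, so the share of members called is no support for a pattern.

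Gli2 had 1 read in the 4 WT LEC libraries together and 1 in the 3 KO LEC libraries, against 1119 and 998 reads in the IntSC groups. The pooled CPM of IntSCs was 1153.5 times that of LECs in WT (exact 95% counting interval 207 to 45601) and 663 times in KO (119 to 26204). The edgeR adjusted p was 1.04e-05 in WT and 0.000745 in KO. Every IntSC library, at 18.1 CPM or more, lay above every LEC library, at 0.140 CPM or less.

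Gli3 had 2 reads in WT LECs, both in WT LEC 1, and 0 in KO LECs, against 684 and 725 reads in the IntSC groups. The ratio was 353 in WT (97.2 to 2917), and the KO level was at least 160-fold higher in IntSCs, taking 3 reads over the KO LEC group as the limit. The adjusted p was 0.000757 in WT and 0.00179 in KO, and no LEC library overlapped with an IntSC library.

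Gli1 was at 14.7, 0.247, 10.3 and 32.7 CPM in WT LECs 1 to 4 and at 0.699, 0.207 and 0 CPM in KO LECs 1 to 3. The lowest IntSC library, at 180 CPM, was above all of them. IntSCs were higher by 4.48 ± 0.78 in WT (adjusted p = 0.000787) and by 9.82 ± 0.64 in KO (adjusted p = 4.77e-06). Reads of Arhgap9 followed in the same order, as given above. The 6 leukocyte markers summed to 82.7, 73.1, 79.3 and 146 CPM in WT LECs 1 to 4 and to 65.3, 36.5 and 28.6 CPM in KO LECs 1 to 3. Most of it came from Cd74 (up to 146 CPM), except in KO LEC 3, where Laptm5 was at 14.3 CPM and Cd74 at 14.0 CPM. Ptprc, the gene of the leukocyte antigen CD45, was at most 0.247 CPM and Cd3e was at 0. WT LEC 4 was the highest LEC library in Gli1, in Arhgap9 and in this list. It was also the highest in the stromal marker Pdgfra (23.3 CPM) and in the telocyte list (57.4 CPM), which includes Pdgfra. Other stromal lists went the other way, since its fibroblast list (558 CPM) and smooth muscle list (86.4 CPM) were the lowest among WT LECs. The part of leukocyte or stromal RNA in the Gli1 count was not tested.

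Hhip was at 1.62, 17.2, 0.281 and 0.400 CPM in WT LECs and at 0.559, 1.34 and 0.869 CPM in KO LECs. WT LEC 2 stood apart from the other LEC libraries, and all lay below the lowest IntSC library at 32.5 CPM. The difference was 3.71 ± 1.0 in WT (adjusted p = 0.0154) and 7.18 ± 0.44 in KO (adjusted p = 3.91e-06). Without WT LEC 2 the WT difference was 6.35 with an adjusted p of 3.06e-05.

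Smo was at 10.6, 4.94, 3.10 and 23.3 CPM in WT LECs and at 0.140, 0.103 and 0 CPM in KO LECs. The WT cell types overlapped, since WT LEC 4 at 23.3 CPM reached WT IntSC 3 at 23.2 CPM, and the difference of 1.73 ± 0.59 had an adjusted p of 0.0458. In 8 of the 10 fits without 1 library, all but those without WT IntSC 3 or WT LEC 4, the adjusted p of Smo was above the threshold, at up to 0.0923, with differences from 1.43 to 2.49. In KO the 2 Smo reads in the 3 LEC libraries gave a ratio of 302 with a counting interval from 83.4 to 2499 (edgeR adjusted p = 0.000834).

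Foxf2 was at 16.8, 0, 0.0938 and 0 CPM in WT LECs and at 0.280, 0.103 and 0 CPM in KO LECs. Of the 178 Foxf2 reads in WT LECs 177 came from WT LEC 1, the library with the highest fibroblast list. The WT difference of 3.60 ± 1.38 did not pass (adjusted p = 0.0792), whereas without WT LEC 1 the adjusted p was 8.35e-06. In KO, with 3 reads in LECs against 2735 in IntSCs, the ratio was 605 (207 to 2938, adjusted p = 4.02e-05).

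Ptch1 was at 2.86, 0, 5.07 and 0 CPM in WT LECs and at 0.140, 0 and 2.61 CPM in KO LECs. In WT the groups overlapped, with WT IntSC 5 at 1.05 CPM below 2 LEC libraries, and neither difference passed the test (2.31 ± 1.51, adjusted p = 0.328 in WT and 2.82 ± 1.62, adjusted p = 0.249 in KO). In KO the groups did not overlap, the highest LEC library at 2.61 CPM lying just under the lowest IntSC library at 2.88 CPM, and without KO LEC 3, that highest library, the difference was 6.34 (adjusted p = 0.0315). Foxl1 had 1 read in the 7 LEC libraries together. It did not pass the filter in WT, where a two-sided exact permutation test on log2(CPM + 1) gave p = 0.143 (smallest possible 0.00952, n = 6 and 4), and in KO the adjusted p was 0.0516, with an IntSC level at least 24.1-fold above the limit of 3 reads over the LEC group. Without KO IntSC 1, the library with 0 reads, the adjusted p was 0.0298, and it was 0.0148 by DESeq2 and 0.0476 by limma-voom.

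Counting libraries alone, 4 of the 7 members tested in WT and 7 of 8 in KO had every IntSC library above every LEC library. Of all genes tested the shares were 11.5% in WT and 20.9% in KO. Genes near 0 in LECs pass the filter through IntSCs, so these shares too are no support for a pattern.

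**Figure D3:**
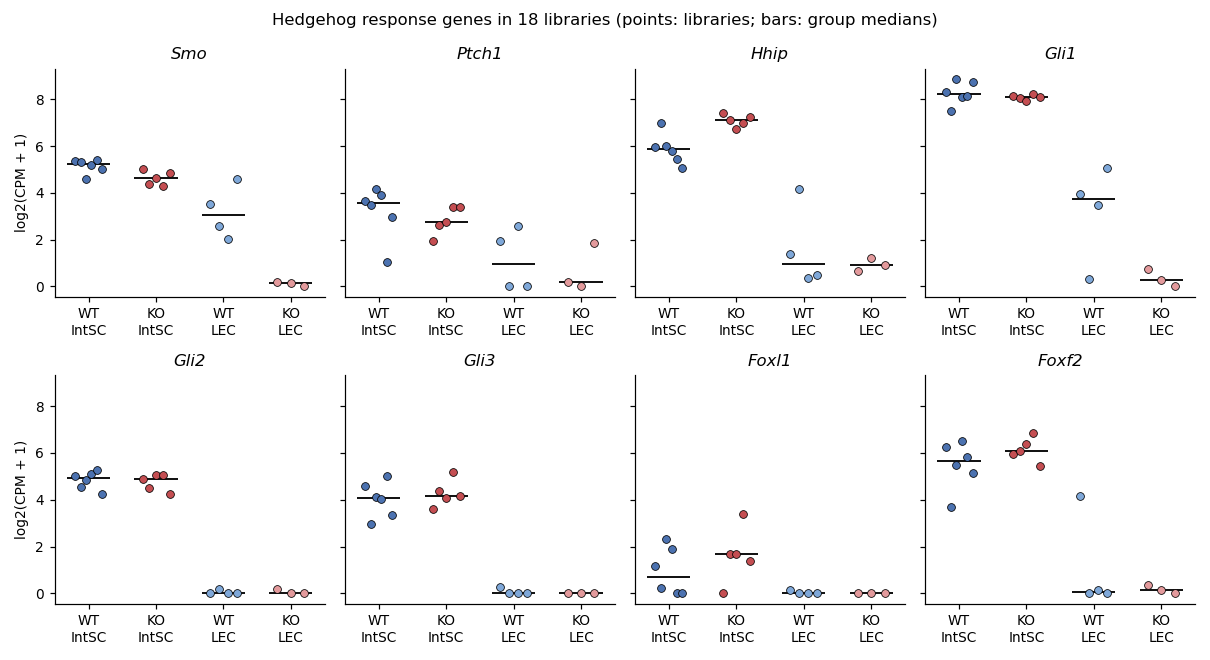
log2(CPM + 1) (y axis) of the members in the 4 groups, with a point per library and a bar at the group median. All IntSC points lie above all LEC points in the panels of Gli1, Gli2, Gli3 and Hhip, and in the Smo panel the highest WT LEC point reaches the IntSC points while the KO LEC points are at 0.140 CPM or less. Heights are not compared between panels.

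**Figure D4:**
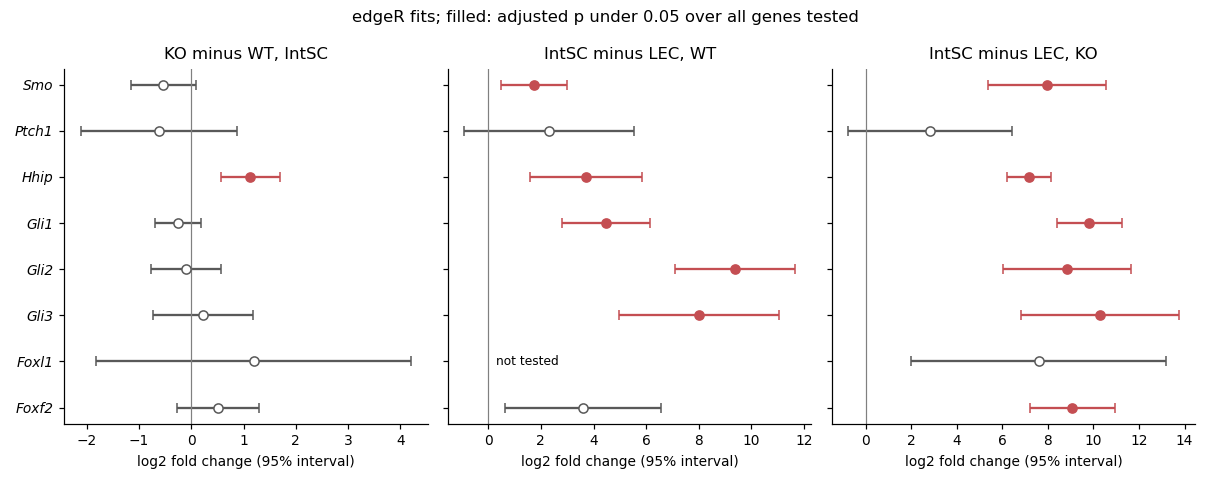
log2 fold changes (x axis) with 95% intervals from the edgeR fits for KO minus WT in IntSCs and for IntSC minus LEC in WT and in KO, with filled points for an adjusted p under 0.05. In the left panel Hhip alone is filled, and in the panels by cell type all estimates lie above 0 with the interval of Ptch1 crossing it.

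The third comparison set LECs of KO mice against those of WT mice. Smo was the member with the clearest separation: all 3 KO libraries, at 0 to 0.140 CPM, lay below all 4 WT libraries, at 3.10 to 23.3 CPM. The KO LEC libraries also held fewer detected genes, 10576 to 11001 against 11490 to 12059 in WT LECs, without overlap. Their totals were 6900493 to 8914526 reads against 7464241 to 10549233. The part of depth and of genes detected in these differences was not tested. In the edgeR fit 0 of 4 members tested passed, 2 (Smo and Gli1) had an unadjusted p under 0.05, and DESeq2 called 1 (Smo). For 4 of the 8 (Gli2, Gli3, Foxl1 and Foxf2) the filter left no test. In the edgeR fit 0.0658% of all genes tested passed the threshold, 7 genes of 10639, and 837 had an unadjusted p under 0.05. DESeq2 called more genes than that, and its count is given in the closing section.

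Smo had 2 reads in the 3 KO LEC libraries and 417 in the 4 WT LEC libraries, a ratio of pooled CPM of 132 (counting interval 36.4 to 1095). The fitted log2 difference of KO from WT was -6.73 ± 2.63, with an unadjusted p of 0.0229 and an adjusted p of 0.518. Groups that did not overlap occurred in 9.93% of all genes tested, and in 6.45% with KO below WT. By DESeq2 the adjusted p of Smo was 0.0158, and it was 0.000628 when LECs and IntSCs were fitted together by edgeR. Both settings called more genes than the edgeR fit of LECs alone, the joint fit 538. The joint fit also shared its spread between the cell types. For Gli1 the difference was -5.47 ± 2.51 (adjusted p = 0.621, and 0.00887 with both cell types fitted together), and WT LEC 2, at 0.247 CPM, lay within the KO range. Hhip (-2.32 ± 2.25) and Ptch1 (-1.02 ± 2.44) had adjusted p of 0.9999 each, and their groups overlapped. Two-sided exact permutation tests of the 4 members left out by the filter gave p from 0.857 to 1, where 3 against 4 libraries can give no less than 0.0571. Gli3 and Foxl1 had reads in 1 LEC library alone, and Gli2 had 1 read in 1 library of each genotype. Their tests could not come near that limit whatever the genotype of those libraries, so they do not decide whether these genes differed.

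A fit with both cell types tested whether the difference between genotypes was the same in IntSCs and LECs. It differed for 2 of the 8 members, Smo and Gli1, against 1.70% of all 14015 genes tested (1.42% in the same direction). In the LEC fit only 4 of the 8 passed the filter, so others entered this fit through IntSCs, and the share called is no support for a pattern. The biological coefficient of variation common to all genes was 0.679 in the IntSC fit and 1.09 in the LEC fit, while this fit used a shared spread. For Smo the KO minus WT difference in IntSCs exceeded that in LECs by 6.22 ± 1.14 on the log2 scale (adjusted p = 0.00527), and for Gli1 by 5.33 ± 1.21 (adjusted p = 0.0330). The median of all genes in this fit was 0.24 rather than 0. Of 18 fits that left out 1 library each the adjusted p of Smo was under the threshold in 18 and that of Gli1 in 8, with differences of 5.47 to 6.67 and of 4.55 to 6.58. The call of Gli1 was lost without any one of WT IntSC 1, 4, 5 or 6, KO IntSC 1, 2, 3 or 5, or KO LEC 2 or 3, by limma-voom (adjusted p = 0.203) and without a filter (adjusted p = 0.0634). Hhip (3.47, adjusted p = 0.150) and Foxf2 (5.44, adjusted p = 0.196) did not pass. Without WT LEC 2 the value of Hhip was 0.85, by DESeq2 its adjusted p was 0.0323, and without WT LEC 1 the value of Foxf2 turned to -0.95. The values of Gli2, Gli3, Ptch1 and Foxl1 were -0.54, 2.25, 0.49 and 2.52, with adjusted p of 0.540 to 0.9999.

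Beside these values stand those of stromal and other markers in LECs. Pdgfra, the receptor gene of villus fibroblasts and telocytes, was at 17.1, 0.865, 5.72 and 23.3 CPM in WT LECs and at 0.310 to 0.559 CPM in KO LECs, and it too passed the test of different genotype effects (4.77 ± 0.91, adjusted p = 0.00907). Of the 7 fibroblast genes 2 passed this test (Pdgfra and Col3a1), and of the 7 telocyte genes Pdgfra alone. Of a trophocyte list (PDGFRa-low CD81+ stromal cells, 6 genes) C3 alone passed, and 3 of the 6 genes had a value above 0. Of all genes tested 1.42% passed in the same direction. In the LEC fit C3 was called lower in KO. The fibroblast list, of which all 7 genes were detected in both LEC groups, summed to 275 to 518 CPM in KO LECs and 558 to 1934 CPM in WT LECs, without overlap. The telocyte list summed to 17.4 to 57.4 CPM in WT LECs and 5.06 to 13.6 CPM in KO LECs, where Sox6, Bmp5 and F3 were at 0. The trophocyte list summed to 437 to 749 CPM in WT LECs and 288 to 401 CPM in KO LECs, although 3 of its 5 genes tested had a KO minus WT difference above 0. Set against the mean of WT IntSCs, the fibroblast list of WT LECs 1 to 4 stood at 15.5%, 4.84%, 4.95% and 4.47%. Smo stood at 30.1%, 14.1%, 8.83% and 66.5% in the same libraries, Gli1 at 4.51%, 0.0759%, 3.17% and 10.1%, Hhip at 2.57%, 27.3%, 0.448% and 0.637%, and Foxf2 at 32.3%, 0%, 0.180% and 0%. Pdgfra stood at 4.47%, 0.225%, 1.49% and 6.08%, in the same order of libraries as Gli1, while Smo, Hhip and Foxf2 had other orders. The members did not keep one ratio to each other or to the fibroblast list from library to library. The Paneth list, at 11.8 to 87.7 CPM in KO LECs, and the epithelial list, at 15.1 to 128 CPM against 2.00 to 27.7 CPM in WT LECs, were in the opposite direction. The blood endothelial list (6 genes) summed to 1900 to 2458 CPM in WT LECs and 1382 to 1836 CPM in KO LECs, and the leukocyte list to 73.1 to 146 CPM and 28.6 to 65.3 CPM, both without overlap. The part of these lists in the LEC values of the members was not tested.

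**Figure D5:**
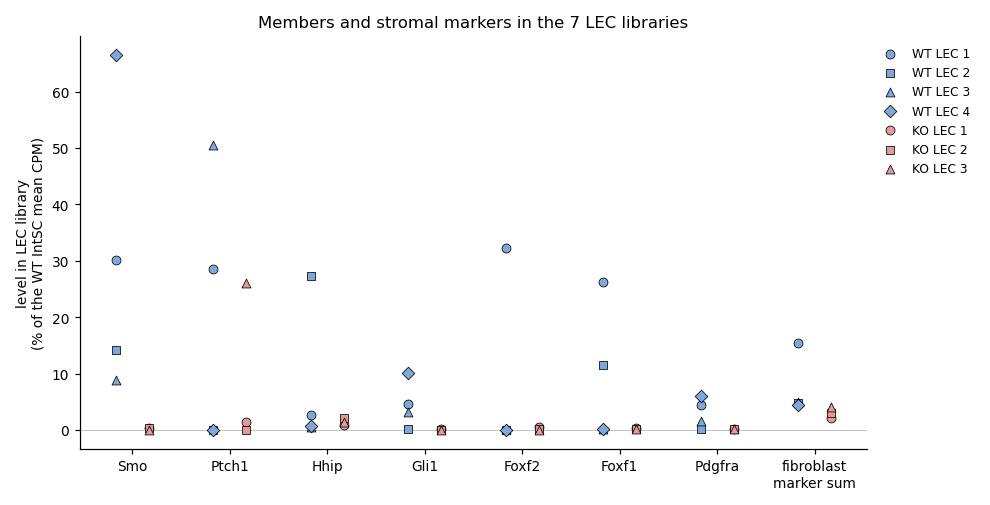
Level in each LEC library as a percentage of the mean CPM of WT IntSCs (y axis) for 5 members, Foxf1, Pdgfra and the sum of 7 fibroblast markers, with a marker shape per replicate number and a colour per genotype. The highest library changes from gene to gene: WT LEC 4 for Smo (66.5%), Gli1 (10.1%) and Pdgfra, WT LEC 3 for Ptch1 (50.5%), WT LEC 2 for Hhip (27.3%) and WT LEC 1 for Foxf2 (32.3%), Foxf1 and the fibroblast sum (15.5%).

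Further genes of the pathway were followed by lists drawn up by role. Of all genes tested 1.47% passed between genotypes in IntSCs. By cell type 12.3% passed as higher in IntSCs in WT and 16.8% in KO. Genes near 0 in LECs passed the filter through IntSCs, so the counts called by cell type in these lists are no support for a pattern. Of the ligands, Shh and Ihh had 0 reads in each of the 18 libraries, which allows at most 0.284 to 0.560 CPM depending on the library. Dhh, the ligand of Schwann and endothelial cells, was at 0 to 6.12 CPM in WT IntSCs, 0 to 8.30 CPM in KO IntSCs, 0 to 4.97 CPM in KO LECs and at most 0.0952 CPM in WT LECs. Of 8 genes of ligands and their release 4 were tested in IntSCs, 0 passed in the edgeR fit and 1 had an unadjusted p under 0.05. That was Scube1 (adjusted p = 0.238), a secreted protein that helps release the ligand, at 141 to 193 CPM in WT and 82.5 to 160 CPM in KO. By cell type Scube1, Scube2 and Disp1, which exports the ligand, were higher in WT IntSCs than in WT LECs (adjusted p = 0.00428, 0.0238 and 0.0461), Scube1 and Scube2 also in KO (adjusted p = 0.00115 and 0.0415). Scube2 had 0 reads in the 7 LEC libraries.

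Of the 6 receptors and co-receptors 3 were tested in IntSCs, 0 passed in the edgeR fit and 1 (Gas1) had an unadjusted p under 0.05. The co-receptor Boc was at 9.81 to 30.5 CPM in WT IntSCs and 17.3 to 30.2 CPM in KO IntSCs, and was at most 0.140 CPM in any LEC library. With 2 Boc reads in WT LECs and 1 in KO LECs, the ratio of pooled CPM was 372 in WT (counting interval 103 to 3074, adjusted p = 0.000168) and 609 in KO (109 to 24079, adjusted p = 0.000911). Gas1 and Gpc3 were higher in WT IntSCs than in WT LECs (3.32 and 3.66, adjusted p = 0.0493 and 0.0230), and neither passed in KO.

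Among 16 intracellular regulators 15 were tested in IntSCs, with a median KO minus WT difference of -0.03 against 0.00 over all genes. In the edgeR fit 0 passed, and 2 had an unadjusted p under 0.05. By cell type 5 of 14 tested were higher in WT IntSCs (Kif7, Gsk3b, Evc, Evc2 and Arrb2) and 0 lower, and in KO 2 of 15 (Kif7 and Evc2). The shares higher in IntSCs over all genes were 12.3% in WT and 16.8% in KO. Kif7, a kinesin of the cilium tip that controls GLI processing, had 0 reads in the 7 LEC libraries. Against 3 reads over a LEC group, it was at least 180-fold higher in WT IntSCs and at least 75.5-fold higher in KO IntSCs (adjusted p = 0.000627 and 0.0303). Evc and Evc2, which lie at the base of the cilium and act beside Smo, differed by 5.64 and 7.18 in WT (adjusted p = 8.33e-05 and 0.000123), and Evc2 by 5.08 in KO (adjusted p = 0.0208). Gsk3b differed by 1.17 (adjusted p = 0.00207), and Arrb2, at 0 reads in WT LECs, was at least 55.0-fold higher in WT IntSCs (adjusted p = 0.0132).

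All 10 primary cilium genes were tested in IntSCs, and in the edgeR fit 0 passed and 0 had an unadjusted p under 0.05. Kif3a, a subunit of the motor for transport into the cilium, was higher in IntSCs than in LECs in both genotypes (1.73 in WT and 2.49 in KO, adjusted p = 0.00113 and 0.00926). Dync2h1, the heavy chain of the motor for the way back, was at 35.3 to 56.3 CPM in WT IntSCs and 31.7 to 59.0 CPM in KO IntSCs. It was at 0.286, 0, 0 and 0.600 CPM in WT LECs and at 29.1, 13.3 and 0.124 CPM in KO LECs. Its genotype effect differed between the cell types in the direction opposite to that of Smo (-5.59 ± 1.24, adjusted p = 0.0183). Cep164 was higher in WT IntSCs than in WT LECs (4.39, adjusted p = 0.00928).

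Of 8 other stromal targets of the pathway 7 were tested in IntSCs and 1 passed. Ccnd1, which encodes cyclin D1 and is also a target of other mitogenic signals, was at 192, 339 and 487 CPM (lowest, median, highest) in WT IntSCs and at 42.4, 81.6, 92.0, 181 and 42.4 CPM in KO IntSCs, every KO library lying below every WT library. It was lower in KO by 1.97 ± 0.36 (adjusted p = 0.00859). Foxf1, the close relative of Foxf2, was at 172 to 247 CPM in WT IntSCs and 145 to 281 CPM in KO IntSCs (0.02 ± 0.19, adjusted p = 0.991), and Bmp4, a BMP ligand of the villus stroma, at 178 to 428 and 193 to 655 CPM (0.10 ± 0.30, adjusted p = 0.976). For Foxf1 the interval of the difference, -0.37 to 0.41, is narrower than that of any of the 8 members.

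By cell type, Foxf1, Bmp4, Bmp2 and Bcl2 were higher in IntSCs in both genotypes, Foxf1 by 3.39 in WT and 9.19 in KO (adjusted p = 0.0240 and 2.66e-06) and Bmp4 by 2.74 and 5.28 (adjusted p = 0.00137 and 9.11e-05). Bmp2 differed by 3.53 and 4.51 (adjusted p = 0.00310 and 0.0436) and Bcl2, an inhibitor of apoptosis, by 1.66 in either genotype (adjusted p = 0.00174 and 0.0418). Ccnd1 was lower in IntSCs than in LECs in KO (-2.47, adjusted p = 0.00522). Between genotypes in LECs, 0 genes of these 5 lists passed in the edgeR fit, and 2 of the other stromal targets had an unadjusted p under 0.05.

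Among the 11 IntSC libraries the members did not vary as one block. After the mean of each genotype had been subtracted, Pearson's r of log2(CPM + 1) was 0.73 for Gli3 with Foxf2, 0.69 for Gli2 with Foxf2, 0.69 for Ptch1 with Foxl1 and 0.61 for Gli2 with Gli3. It was -0.74 for Smo with Foxl1 and -0.62 for Gli1 with Hhip, and 0.14 for Gli1 with Ptch1, the pair of readouts. The Spearman coefficient of Gli1 with Hhip was -0.10, and that of Gli1 with Ptch1 was 0.10. These are descriptions over 11 libraries that share depth and cell make-up.

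By the same measure the genes most like Gli1, among 10573 genes with a mean of at least 5 CPM, were Arhgap9 (r = 0.996), Aatf, Gtf2f2, Tshz2 and Tmcc2 (r = 0.938 to 0.947). Those most like Ptch1 were Gpsm2, Mpp6, Papss2, Scp2 and Gga2 (r = 0.863 to 0.949), those most like Foxl1 were Mrps10, Kifap3, Rev1, Dpm1 and Nmb (r = 0.892 to 0.924), and those most like Foxf2 were Atp6v1d, Ipo8, Crb2, Mrpl38 and Hcar2 (r = 0.924 to 0.966). Foxl1, with a mean under 5 CPM, was not among the genes searched. None of the other members was among the 5 nearest genes of Gli1, Ptch1, Foxl1 or Foxf2, the members for which the search was run.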

How the data were processed

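Total RNA of the sorted cells was made into libraries with a Lexogen QuantSeq kit per the labels and sequenced on an Illumina NextSeq 500. Per library the authors deposited 1 table with the raw read count of each gene symbol. Their processing notes name Bowtie2, edgeR and mm10, their methods TopHat and Cufflinks; the counting program and annotation are not given in the sources used here. Each table held 23282 rows, and the counts of 35 symbols on several rows were summed. Groups came from the sample titles.

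Counts were tested with edgeR 4.0.16 (quasi-likelihood fit, TMM factors, filterByExpr, Benjamini-Hochberg adjustment over all genes tested, threshold 0.05) in R 4.3.3, with 95% intervals from the fit. Printed CPM used TMM factors over all 18 libraries. log2(CPM + 1) used a pseudocount of 1. Alternatives were RLE factors, DESeq2 1.42.0, limma-voom (limma 3.58.1), no filter, a mean count of at least 10, leaving out the ribosomal precursor Rn45s, the replicate number as a block, 1 fit for all groups, and leaving out each library. Scripts were tested on simulated data. Intervals from counts and the limits for 0 reads take in counting error alone, since reads carried no molecular identifiers and PCR copies are not separate molecules.

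Named were the 8 members in every comparison, pathway genes past the threshold and, always, the ligands, Foxf1 and Bmp4, and for likeness the 5 genes of highest r. Scube1, Pdgfra, Col3a1, C3, Ptprc, Cd74, Cd3e, Lats1, Lats2 and Arhgap9 were named after their values were seen. Members and lists were chosen with earlier results of these data known. One gene of the naming rule is not reported here.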

Additional observations from a re-analysis of the deposited data

Results flagged for a closer look

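In 72 groups of values with 4 to 6 libraries (8 members and 16 lists), 16 had a lowest or highest library that stood off by Dixon's criterion at the 95% level. Chance meets it in about 1 group in 20 when values are normally distributed. That rate need not hold for CPM, least of all where only 1 library of a group had reads. The number flagged is therefore not read against it. Each CPM below is followed by the range of the other libraries of its group.

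Among the members, WT IntSC 2 had the highest Hhip (124 CPM against 32.5 to 62.5 CPM) and KO IntSC 4 the highest Foxl1 (9.40 CPM against 0 to 2.19 CPM). WT LEC 2 had the highest Hhip (17.2 CPM against 0.281 to 1.62 CPM), and WT LEC 1 the highest Foxf2 (16.8 CPM against 0 to 0.0938 CPM). A further 3 values rest on 1 or 2 reads each in WT LECs whose other libraries had 0: Gli2 in WT LEC 2 (0.124 CPM), and Gli3 (0.190 CPM) and Foxl1 (0.0952 CPM) in WT LEC 1.

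Among the lists, WT LEC 1 had the highest sums of fibroblast markers (1934 CPM against 558 to 618 CPM) and trophocyte markers (749 CPM against 437 to 486 CPM). WT LEC 4 had the highest leukocyte sum (146 CPM against 73.1 to 82.7 CPM) and WT LEC 2 the highest Paneth sum (0.741 CPM against 0 to 0.100 CPM). In IntSCs, KO IntSC 5 stood apart in Paneth markers (113 CPM against 38.1 to 47.5 CPM), KO IntSC 3 in enteric neuron and glia markers (22.0 CPM against 7.91 to 10.6 CPM), WT IntSC 6 in epithelial markers (127 CPM against 0 to 17.9 CPM), WT IntSC 4 in leukocyte markers (3.03 CPM against 12.0 to 17.0 CPM) and WT IntSC 1 in genes of Hedgehog ligands and their release (209 CPM against 158 to 174 CPM).

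The difference between genotypes itself differed between IntSCs and LECs, by the interaction term of the edgeR fit, for Smo (6.22, adjusted p = 0.00527), Gli1 (5.33, adjusted p = 0.0330) and Dync2h1 (-5.59, adjusted p = 0.0183).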

How the results depend on the processing

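Of 656 member tests under the alternatives 597 kept their direction and their side of the threshold, 39 kept their direction but no longer passed, 12 passed where they had not, and 8 reversed. The reversals concerned differences that did not pass. Without 1 library the IntSC difference of Gli2 ran from -0.20 to 0.017 (KO IntSC 5 left out) and that of Gli3 from -0.11 (KO IntSC 4) to 0.49. The difference of genotype effects ran from -1.95 to 1.31 (KO LEC 1) for Gli2, from -0.55 (WT LEC 3) to 4.01 for Ptch1, which was also below 0 without KO LEC 1 or KO LEC 2 and with the replicate block (-0.72), and from -0.95 (WT LEC 1) to 6.41 for Foxf2.

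Members called between genotypes in IntSCs went from 1 to 0 with the replicate block and with all 4 groups in one fit, and to 0 or 1 without 1 library. In LECs they went from 0 to 1 by DESeq2 and 2 with all 4 groups in one fit. Members with different genotype effects went from 2 to 1 by limma-voom or without a filter, to 0 with the replicate block, to 3 by DESeq2, and to 1 or 2 without 1 library. By cell type, 4 to 6 members were called in WT and 4 to 8 in KO over the alternatives, against 5 and 6.

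Over all genes, the 183 called in IntSCs became 376 by DESeq2, 27 with all 4 groups in one fit and 99 to 186 without 1 library (121 or fewer without WT IntSC 1 or KO IntSC 1, 2, 3 or 5). The 7 called in LECs became 309 by DESeq2, 12 by limma-voom, 32 without a filter, 20 at a mean count of at least 10, 538 with all 4 groups in one fit, and 0 to 16 without 1 library (0 without WT LEC 3, 1 and 2 without WT LEC 2 and 4, 3, 16 and 4 without KO LEC 1, 2 and 3). The 238 with different genotype effects became 1054 by DESeq2, 143 by limma-voom and 161 to 461 without 1 library (461 without KO LEC 2 and 379 without KO LEC 3). With the replicate block 3 genes were called in LECs, 16 for genotype effects, and 1596 and 895 by cell type in WT and KO, against 2763 and 3302. The causes were not tested.

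The replicate numbers did not pair the libraries: deviations of same-numbered libraries correlated at a mean of 0.02 in IntSCs and 0.00 in LECs. With the block Hhip differed in IntSCs by 1.09 (adjusted p = 0.0723), and Smo no longer passed by cell type in WT (2.10, adjusted p = 0.103) or KO (8.10, adjusted p = 0.0579), nor Gli3 in KO (adjusted p = 0.121). The genotype effects of Smo (5.95, adjusted p = 0.372) and Gli1 (4.75, adjusted p = 0.655) no longer passed the test of a difference, whereas Foxf2 passed by cell type in WT (7.42, adjusted p = 0.0314). The difference of Smo by cell type in WT was also lost without a filter and with all 4 groups in one fit (adjusted p = 0.0638 and 0.0593). The medians of the 11 marker lists kept within 1 SD with RLE factors. Foxl1 had at most 1 read in a LEC library and 0 to 63 in an IntSC library, so its differences are imprecise.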
